A study of Mus musculus with 3 samples.

Results

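Skeletal muscle and myoid genes were followed in RNA of normal mouse thymus: 10 genes taken by symbol (Mylpf, Acta1, Ckm, Chrna1, Ttn, Tnnt3, Tnnc2, Myog, Myod1 and Des), out of 52636 gene identifiers counted. The study set T cell lymphomas lacking Cic, the gene of the transcriptional repressor capicua, against thymus of control littermates. The values here come from the control group alone, 3 thymi of C57BL/6 mice whose Cic alleles were flox/flox and which had received tamoxifen. Whether these controls carried a Cre transgene, and their age and sex, is not given in the labels, and the lymphomas are not analysed here. The libraries, called thymus 1, 2 and 3 after the labels, held 30414788, 28587087 and 25408442 reads assigned to genes on the transcribed strand.

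Skeletal muscle contracts through sarcomeres, in which myosin motors pull on actin filaments and troponin and tropomyosin switch that pull on with calcium. The programme is set up by basic helix-loop-helix factors, MyoD and myogenin among them, which bind E-boxes in the promoters of muscle genes. The thymus holds rare myoid cells, muscle-like cells of the medulla, and medullary epithelial cells also transcribe genes of peripheral tissues, under AIRE and other factors, so that developing T cells meet self-antigens. The acetylcholine receptor of muscle is the main autoantigen of myasthenia gravis, a disease linked to the thymus.

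The promoters of 3 of the genes are shown because they belong to members at very different levels (Mylpf the highest, Acta1 in the middle, Chrna1 near the detection limit) while each holds the same E-box. Each is the 250 bases before the RefSeq start (build GRCm38.p6), 5′ to 3′, with every E-box, CANNTG, in capitals. They lie at chr7:127211358-127211607 on the plus strand, chr8:123894776-123895025 on the minus strand and chr2:73580339-73580588 on the minus strand.
Mylpf: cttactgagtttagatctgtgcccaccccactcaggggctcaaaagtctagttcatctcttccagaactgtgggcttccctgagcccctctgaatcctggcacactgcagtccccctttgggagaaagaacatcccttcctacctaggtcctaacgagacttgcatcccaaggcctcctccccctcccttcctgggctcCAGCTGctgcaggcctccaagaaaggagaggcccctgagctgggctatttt
Acta1: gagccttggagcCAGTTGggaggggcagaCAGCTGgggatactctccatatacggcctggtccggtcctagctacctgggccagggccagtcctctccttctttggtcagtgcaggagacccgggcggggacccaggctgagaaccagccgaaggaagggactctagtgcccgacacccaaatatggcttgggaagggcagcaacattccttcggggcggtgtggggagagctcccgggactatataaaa
Chrna1: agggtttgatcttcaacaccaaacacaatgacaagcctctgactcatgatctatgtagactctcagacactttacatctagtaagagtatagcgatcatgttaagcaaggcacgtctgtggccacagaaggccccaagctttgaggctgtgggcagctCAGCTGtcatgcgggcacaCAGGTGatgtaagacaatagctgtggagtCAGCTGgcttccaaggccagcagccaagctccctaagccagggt

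RefSeq gave promoters for 8 of the 10 genes, and all 8 held at least 1 CANNTG, a motif whose reverse complement is the same motif. Over all 32851 promoter windows of that length 66.2% held it. The form CAGCTG, which lies within CANNTG, was in 5 of the 8 (Mylpf, Acta1, Ckm, Chrna1 and Des) and in 13.0% of all windows. Mylpf held 1 E-box, which begins at position -51 from the RefSeq start. That window lies within the annotated gene counted here, which begins upstream of it, at 127208890. The windows of Ckm, Tnnc2 and Myog overlap annotated exons of those same genes. Chrna1 held 3, the nearest at -44, and Acta1 held 2, the nearer at -221. A CArG box, the site of serum response factor, was found in Acta1 alone of the 8 (1.47% of all windows), both strands searched. A strict MEF2 pattern, YTAWWWWTAR, was matched in Ttn alone (2.92%), again on both strands. In it Y stands for C or T, W for A or T and R for A or G. The Myog window holds CTATATTTAT, which departs from that pattern only in its last base, so MEF2 sites of looser form were not counted. These matches are descriptions of the letters and were not tested against expression.

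The fast skeletal myosin light chain gene Mylpf gave most of the reads of these 10 genes. Levels are given as CPM, each gene's reads relative to the TMM-scaled size of its library, and errors are SDs over the 3 thymi. Mylpf (ENSMUSG00000030672, chromosome 7, 127208890 to 127214298, plus strand) encodes the regulatory light chain of fast-twitch myosin. It had 889, 850 and 785 reads in thymus 1, 2 and 3, which are 29.2, 28.9 and 31.8 CPM, or 29.97 ± 1.59 CPM (SD, n = 3). The 3 libraries lay close together, the highest 1.10 times the lowest. Mylpf took 64.0%, 64.2% and 71.2% of the reads of all 10 genes, with exact 95% binomial intervals of 61.4% to 66.5%, 61.6% to 66.8% and 68.5% to 73.9%. These intervals cover counting error in single libraries, not the spread between animals. Thymus 3 had the highest share, and Ttn took 13.9% of the reads there, against 21.7% and 18.8% in thymus 1 and 2.

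In all, 4 of the 10 genes (Mylpf, Ttn, Des and Tnnt3) reached 1 CPM in every library and the other 6 were below it in every library. Of 21896 protein-coding genes, 58.4% reached that level in every library and 39.2% were below it in every library. The median over the 10 genes was 0.400 CPM, against 4.47 CPM over all protein-coding genes. In bulk tissue, fewer cells of a type and less RNA per cell cannot be told apart.

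**Figure D1:**
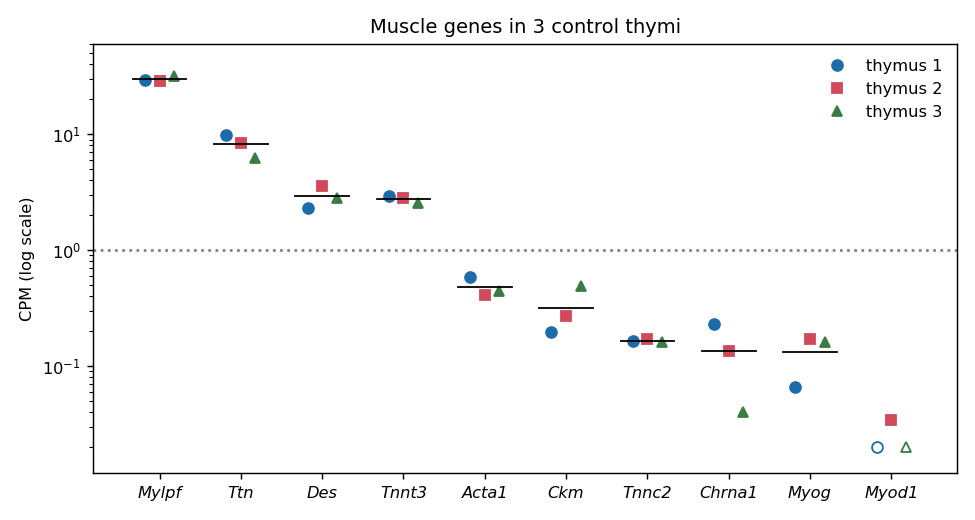
CPM (log scale) of the 10 genes in each thymus, points by library and a black line at the mean; open symbols mark 0 reads and sit at an arbitrary height, and the dotted line is 1 CPM. Mylpf lies near 29.97 CPM in all 3 thymi, while Acta1, Ckm, Tnnc2, Chrna1, Myog and Myod1 lie below 1 CPM.

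Other sarcomere genes of fast fibres were present at far lower levels. Tnnt3 (chromosome 7, 142498836 to 142516009, plus strand), the troponin T of fast fibres that ties the troponin complex to tropomyosin, had 90, 83 and 63 reads, or 2.95, 2.83 and 2.55 CPM. Acta1 (chromosome 8, 123891769 to 123894751, minus strand), the actin of skeletal thin filaments, had 18, 12 and 11 reads, or 0.591, 0.409 and 0.446 CPM. Both genes were highest in thymus 1. Tnnc2 (chromosome 2, 164777161 to 164779967, minus strand), the calcium-binding troponin C of fast fibres, had 5, 5 and 4 reads, or 0.164, 0.170 and 0.162 CPM. Its 3 libraries were nearly level, at counts only just above the limit of 3 reads, which corresponds to 0.0985, 0.102 and 0.122 CPM.

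The scaffold genes among the members, Ttn and Des, differed more between thymi than Mylpf and Tnnt3 did. Their highest library was 1.60 and 1.55 times the lowest, against 1.10 and 1.16, with Acta1 at 1.45. Ttn (chromosome 2, 76703980 to 76982547, minus strand) encodes titin, the giant spring that runs from the edge of the sarcomere to its middle. It had 302, 249 and 153 reads, or 9.91, 8.48 and 6.20 CPM, highest in thymus 1 and lowest in thymus 3. Des (chromosome 1, 75360329 to 75368579, plus strand) encodes desmin, the intermediate filament of skeletal, cardiac and smooth muscle. It had 71, 106 and 69 reads, or 2.33, 3.61 and 2.80 CPM, highest in thymus 2.

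The energy enzyme, receptor and regulator genes were close to the detection limit. Ckm (chromosome 7, 19404776 to 19422841, plus strand), the muscle creatine kinase that regenerates ATP, had 6, 8 and 12 reads, or 0.197, 0.272 and 0.486 CPM. Chrna1 (chromosome 2, 73563215 to 73580338, minus strand), the acetylcholine-binding alpha subunit of the muscle receptor, had 7, 4 and 1 reads, or 0.230, 0.136 and 0.0405 CPM. Ckm was highest and Chrna1 lowest in thymus 3, at counts where reads in single digits set the order. Myog (chromosome 1, 134289989 to 134292548, plus strand), which encodes myogenin, had 2, 5 and 4 reads. Myod1 (chromosome 7, 46376474 to 46379099, plus strand), which encodes MyoD, had 0, 1 and 0 reads, below the 3-read limit in every library. Over the 3 libraries together that is 1 read for Myod1, with an exact 95% Poisson interval of 0.0253 to 5.57 reads, and 11 for Myog, with an interval of 5.49 to 19.7. No molecular identifiers were used, so these intervals and limits speak of counting error alone.

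Levels of different genes were compared per kilobase of exon, since a long transcript gathers more reads. On that scale, CPM per kilobase, Mylpf was at 28.2 ± 1.497, Tnnt3 at 1.75 ± 0.130, Des at 0.776 ± 0.172, Acta1 at 0.314 ± 0.0627 and Tnnc2 at 0.207 ± 0.00532. Each of these lay above the next in all 3 libraries without overlap of ranges. Ckm (0.109 ± 0.0515), Myog (0.0887 ± 0.0389) and Ttn (0.0702 ± 0.0160) followed, and their neighbouring ranges overlapped. Chrna1 was at 0.0309 ± 0.0216, below Ttn in every library, and its range overlapped that of Myod1, at 0.00610 ± 0.0106. Ttn thus stood second in CPM and eighth per kilobase, with 116825 bases of exon. Within libraries Mylpf was 16.2 ± 2.08 times Tnnt3, 92.4 ± 18.1 times Acta1 and 421 ± 127 times Ttn per kilobase. With the longest transcript as the length these ratios were 15.3 ± 1.97, 121 ± 23.7 and 534 ± 161, and the order of the 10 genes was the same. In the unstranded counts the first 4 genes kept their places, but below them the order changed. There Tnnc2 fell to 0.0139 CPM per kilobase, below Chrna1 at 0.0605, and Ckm, at 0.0611, stood below Myog (0.0904) and Ttn (0.0815).

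Each muscle protein has relatives in other cells, and the members were set beside theirs. Of 7 genes for myosin regulatory light chains, the non-muscle forms Myl12a and Myl12b led at 57.9 ± 3.60 and 57.3 ± 3.42 CPM per kilobase. Mylpf came next, at 0.490 ± 0.0575 times Myl12a and 2.71 ± 0.235 times Myl10, which stood at 10.5 ± 1.11. The smooth muscle form Myl9 was at 2.85 ± 0.203, the atrial form Myl7 at 0.914 ± 0.172 and the slow and ventricular form Myl2 at 0.0438 ± 0.0239. The skeletal form was thus the third of the 7, above the smooth and cardiac forms in every library. No 50-base stretch of the annotated Mylpf transcripts occurs in a transcript of another gene. For Myl12a and Myl12b 16.4% and 25.4% do, so their levels and the ratio of Mylpf to Myl12a are uncertain. With the longest transcript as the length that ratio was 0.392 ± 0.0459.

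In the other families the skeletal form was low. Of the 6 actins, the cytoplasmic Actb was at 577 ± 46.0 and Actg1 at 21.02 ± 2.74 CPM per kilobase. The smooth muscle actin Acta2 was at 2.20 ± 0.438, Acta1 at 0.314 ± 0.0627, the enteric smooth muscle actin Actg2 at 0.221 ± 0.0209 and the cardiac Actc1 at 0.0788 ± 0.0276. Acta1 was below Acta2 by a factor of 7.27 ± 2.47 within libraries. Of Actg1, 37.4% of 50-base stretches occur in other transcripts, and its level is therefore uncertain. Among creatine kinases, the brain form Ckb was at 6.40 ± 1.27, the ubiquitous mitochondrial Ckmt1 at 1.76 ± 0.244, Ckm at 0.109 ± 0.0515 and the sarcomeric mitochondrial Ckmt2, with 1 read in each library, at 0.0241 ± 0.00278.

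**Figure D2:**
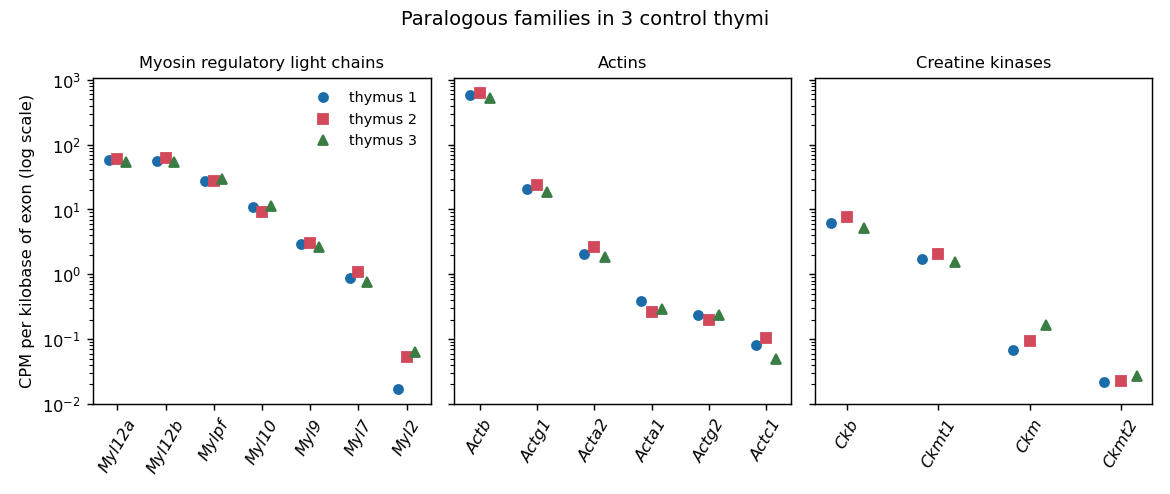
CPM per kilobase of exon (log scale) for the myosin regulatory light chain, actin and creatine kinase genes, with 1 point for each thymus. Mylpf, at 28.2, is the third of its family, while Acta1 (0.314) and Ckm (0.109) lie far under the cytoplasmic actin Actb (577) and the brain creatine kinase Ckb (6.40).

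The wider programme was read from 74 further muscle genes in 8 lists. Of these, 27 reached 1 CPM in every library, 42 were below it in every library, 5 were mixed, and 12 had 3 reads or fewer in every library. Their median was 0.589 CPM. At 0.5 CPM in place of 1 CPM, 36 of the 74 passed. Of all protein-coding genes, 58.4% reached 1 CPM in every library, 39.2% were below it and 25.5% had 3 reads or fewer. Among the other 8 fast sarcomere genes, 3 reached 1 CPM throughout. They were Tpm2, a tropomyosin gene not restricted to skeletal muscle, at 11.2 ± 1.84 CPM, Actn3, the fast-fibre alpha-actinin, at 9.11 ± 1.38, and Tnni2, the fast troponin I, at 2.10 ± 0.196. The fast myosin heavy chains were low: Myh4 had 22, 17 and 8 reads, Myh1 8, 3 and 2, and Myh2 0, 0 and 2. Between 18.9% (Myh4) and 25.4% (Myh1) of the 50-base stretches of these 3 genes also occur in transcripts of other genes, so their levels are uncertain.

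Slow, developmental and scaffold genes gave a like picture. Of 8 slow sarcomere genes 1 reached 1 CPM throughout, Tnnt1, the slow troponin T, at 6.83 ± 0.0188 CPM. Per kilobase Tnnt1 was 1.77 ± 0.138 times Tnnt3, its fast counterpart. Next in that list per kilobase were Tnnc1 (0.350 ± 0.169 CPM) and Tnni1 (1.12 ± 0.164 CPM). Of 5 developmental genes, Myl4, an embryonic and atrial light chain, was at 2.06 ± 0.296 CPM and the other 4, the embryonic and perinatal myosins Myh3 and Myh8 among them, were below 1 CPM in every library. Of the 12 further scaffold genes 4 reached 1 CPM throughout. The 3 highest per kilobase were Tcap (0.547 ± 0.120 CPM), Cmya5 (3.61 ± 0.111) and Myom1 (2.89 ± 0.326). Cmya5 had 108, 117 and 74 opposite-strand reads beside 112, 108 and 86 on its own strand. Of its 50-base stretches 19.5% occur on the opposite strand in other transcripts, mainly of A630019I02Rik.

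Regulators divided, though not wholly by kind. Of the 4 myogenic basic helix-loop-helix genes, Myf5 had 0 reads in all 3 libraries and Myf6 had 0, 0 and 2, beside the few reads of Myog and Myod1. Of the 9 regulators other than Myog and Myod1, 5 reached 1 CPM in every library, among them Eya1 (8.998 ± 1.23 CPM), which encodes a transcriptional coactivator that also acts in the early thymus, and Six4 (8.61 ± 0.568), which encodes a homeobox factor. Pax7, a factor of muscle stem cells, had 44, 40 and 37 reads, or 1.43 ± 0.0690 CPM. Its relative Pax3 had only 3, 4 and 4 reads, and Mymk, of the same list, had 4, 5 and 2.

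Receptor, calcium and energy genes also split. Of the muscle acetylcholine receptor subunits, Chrnb1 was at 8.22 ± 0.342 CPM, while Chrnd had 3, 1 and 0 reads, Chrne 7, 7 and 8 and Chrng 2, 2 and 1. The beta subunit alone of the 5 subunit genes thus passed 1 CPM in every library. Of the junction genes, Rapsn, which clusters the receptors, and Lrp4, the agrin receptor, were at 1.77 ± 0.305 and 7.41 ± 1.05 CPM. Opposite-strand reads were 16.8% of the reads of both strands for Chrnb1 and 20.1% for Rapsn. Of 15 genes of excitation and calcium handling 4 reached 1 CPM throughout, and Jph1 led per kilobase (5.84 ± 0.941 CPM), before Pvalb (0.642 ± 0.212) and Cacna1s (2.99, 2.89 and 3.12). Cacna1s had 91, 85 and 77 reads on its own strand but 3, 0 and 2 in the unstranded counts, where it did not reach 1 CPM, and 16.2% of its 50-base stretches occur on the opposite strand, mainly in Gm37759. Of 9 further genes of the energy list, which also holds the tropomodulin gene Tmod4, 5 reached 1 CPM throughout (Tmod4 included), led per kilobase by Eno3 (23.2 ± 0.432 CPM), Pfkm (24.97 ± 0.774) and Ampd1 (14.5 ± 0.330), which encode enzymes of glycolysis and purine metabolism.

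**Figure D3:**
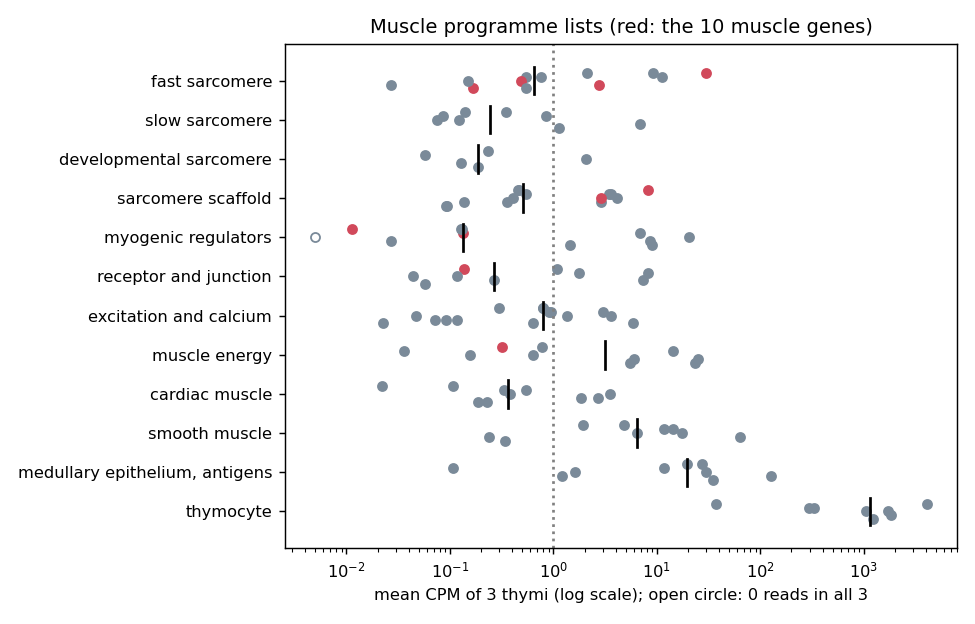
Mean CPM over the 3 thymi (log scale) of every gene of 12 lists, with the 10 muscle genes in red, a black line at each list's median and an open circle for Myf5, which had 0 reads and sits at an arbitrary place. Mylpf is the rightmost of the fast sarcomere genes at 29.97 CPM, and the medians of the skeletal lists other than energy lie below 1 CPM.

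The tissue label was checked against markers. All 8 thymocyte genes exceeded 10 CPM in every library, with Cd8b1 the highest per kilobase. The cell types that could carry muscle-related RNA were summed as lists. Of the 9 smooth muscle genes 7 reached 1 CPM in every library, with sums of 120, 132 and 111 CPM. Synm alone gave 62.9, 68.1 and 60.7 CPM of these sums, while Cnn1 and Actg2 were below 1 CPM in every library. Tagln had 400, 361 and 242 reads on its own strand but 29, 44 and 23 in the unstranded counts. Of the 10 cardiac genes 3 reached 1 CPM in every library, namely Tnnt2 (3.50 ± 0.344 CPM), Actn2 (2.72 ± 0.772) and Tnni3 (1.85 ± 0.331). The cardiac sums were 9.35, 9.74 and 10.5 CPM, and Myh6, a cardiac myosin heavy chain gene, had 2, 0 and 0 reads. Of the 9 genes of medullary epithelium and its self-antigens 8 did so, with sums of 257, 286 and 218 CPM, Aire among them at 27.0 ± 4.68 CPM. Of the 6 fat genes 4 did so, with sums of 116, 154 and 116 CPM. Of these sums Car3 alone gave 68.5, 93.8 and 55.6 CPM, so they rest largely on 1 gene. The brown fat gene Ucp1 stood at 0.788, 3.47 and 15.3 CPM. The 5 red cell genes summed to 1023, 47.0 and 223 CPM and set thymus 1 apart. The 10 muscle genes together summed to 45.6, 45.0 and 44.6 CPM, of which Mylpf made up 29.2, 28.9 and 31.8 CPM.

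The spread between thymi was then tested. Of the 10 genes 5 (Mylpf, Ttn, Des, Tnnt3 and Acta1) had enough reads, and 0 of them had a spread between thymi above that of genes of like abundance (one-sided quasi-likelihood test in edgeR, Benjamini-Hochberg 0.05). Over all 16548 genes tested 0.0604% were called. At an unadjusted p under 0.05 the test gave 0 of the 5, against 4.42% of all genes tested. The DESeq2 dispersion check gave 0 of the 5, against 0.489%, and negative binomial goodness of fit gave 0, against 0.737%. The edgeR adjusted p was 0.984 for Ttn, 0.984 for Des, 0.990 for Acta1, 0.992 for Mylpf and 0.995 for Tnnt3. With 3 libraries, a p that misses the threshold does not show that the thymi were alike.

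Against counting noise alone, the edgeR Poisson goodness of fit called 2 of the 5 genes, Ttn and Des. It called 43.4% of all genes tested, so the count is near the background and is no result about these genes. The adjusted p was 3.97e-05 for Ttn and 0.0354 for Des, and 0.194, 0.680 and 0.756 for Mylpf, Acta1 and Tnnt3. The coefficient of variation was 22.8% for Ttn and 22.2% for Des, against medians of 9.92% and 14.0% in the 500 genes nearest to each in abundance. It was 5.30% for Mylpf against 6.78%, and 7.38% for Tnnt3 against 14.4%. The Des call was lost without thymus 2 (adjusted p = 0.490) and without thymus 1 (0.194), and the Ttn call without thymus 3 (0.194). Without the filter on low counts the Des call was also lost, at an adjusted p of 0.0636. Des was highest in thymus 2, where 6 of the 9 smooth muscle genes, 6 of the 9 medullary epithelium genes and 3 of the 6 fat genes were also highest. So were 5 of the 8 thymocyte genes and 31 of the 74 further muscle genes, but only 2 of the 10 cardiac and 0 of the 5 red cell genes. The share of all genes that were highest in thymus 2 was not counted. Ttn was lowest in thymus 3, where the sums of the medullary epithelium and smooth muscle lists were also lowest, but it was highest in thymus 1 while both lists were highest in thymus 2. The part of these cell types in either result was not tested.

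Of the 74 further muscle genes 39 were tested and 0 were called by the edgeR quasi-likelihood test, while 1 gene had an unadjusted p under 0.05 and was also called by the DESeq2 check and by the negative binomial fit test. Over all genes tested these rules called 4.42%, 0.489% and 0.737%. Against counting noise alone 6 of the 39 were called, beside 43.4% of all genes. The 1 gene was Tmod4, which caps thin filaments and was named after its values were seen, with 93, 289 and 93 reads and an edgeR adjusted p of 0.594.

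Neighbouring genes were read because a gene's counts depend on what is transcribed around it. The Mylpf gene ends 148 bases from the end of Sept1, a septin gene on the opposite strand that stood at 487.5 ± 32.2 CPM. Upstream, 421 bases away and also on the opposite strand, lay Tbc1d10b at 86.3 ± 3.10 CPM. The Tnnt3 gene starts 3968 bases after Lsp1, a lymphocyte gene on the same strand at 363 ± 48.6 CPM. Tnnc2 overlaps Ube2c, a mitotic gene on the opposite strand at 115 ± 7.99 CPM. The highest neighbours of Acta1 and Ckm within 5000 bases were Nup133 at 34.5 ± 1.98 and Mark4 at 41.8 ± 3.61 CPM, and Myod1 had none in that window. The part of these neighbours in the members' counts was not tested.

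Of the 10 genes, 5 had opposite-strand reads in every library. Tnnc2 had 14, 19 and 17 reads on the opposite strand, more than on its own in every library, and 47.9% of its 50-base stretches occur on the opposite strand in other transcripts, mainly of Ube2c. In the unstranded counts, which set aside reads falling on several genes, Tnnc2 had 1, 0 and 0 reads. Chrna1 had 5, 5 and 1 opposite-strand reads, 47.8% of the reads of both strands, and 12, 9 and 2 reads in the unstranded counts. Ckm had 4, 4 and 5 opposite-strand reads, 33.3% of both strands, and 3, 3 and 8 unstranded. Ttn had 45, 38 and 24 opposite-strand reads, 13.2% of both strands. Mylpf had 241, 194 and 210 opposite-strand reads, 20.4% of the reads of both strands. The median share over the 16548 genes tested was 0.186%, and 93.4% of them had a lower share than Mylpf. Des, Acta1, Myog and Myod1 had 0 opposite-strand reads in every library.

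**Figure D4:**
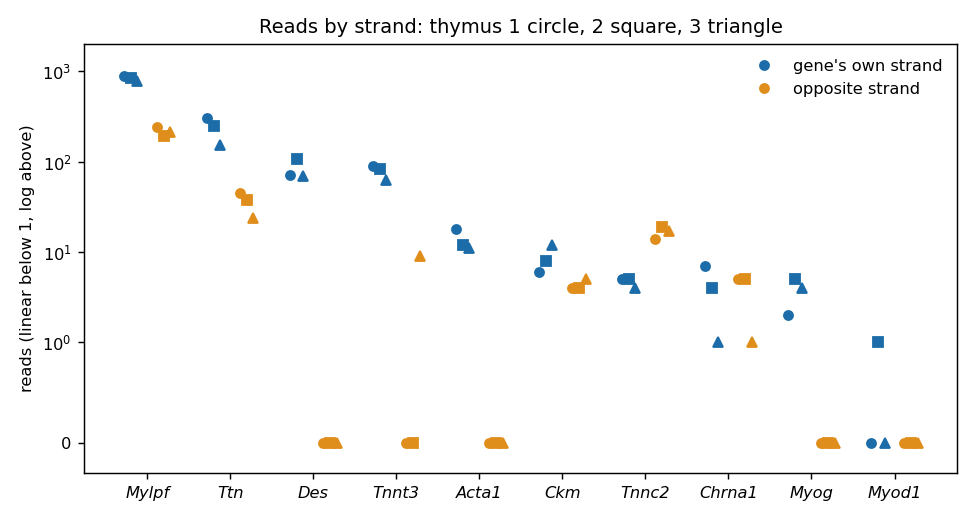
Reads of each of the 10 genes on its own strand (blue) and on the opposite strand (orange), with 1 symbol shape for each thymus, on an axis that is linear below 1 and logarithmic above. Mylpf has 194 to 241 opposite-strand reads, Tnnc2 has more reads on the opposite strand than on its own in all 3 thymi, and Des, Acta1, Myog and Myod1 have none.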

How the data were processed

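The 3 control thymi were profiled by RNA-seq; the labels' protocols name the AllPrep kit for extraction and TruSeq Stranded mRNA for the libraries. The authors deposited raw read counts per gene for each library: either strand, and each strand apart. The submitters' processing notes name STAR 2.5.3a, DESeq2 without a version and build GRCm38; no annotation release is given in the sources used here. Reverse-strand counts, the column that holds most reads, were used. Of all reads, 30.9% to 33.6% were in the 4 summary lines that name no gene and entered no test.

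Identifiers were matched without version to GENCODE M21 (GRCm38): 52489 of 52636 matched. Symbols, 1-based coordinates and exon lengths come from it. Tools were edgeR 4.0.16 (on limma 3.58.1) and, for alternatives, DESeq2 1.42.0, under R 4.3.3. Filtering by edgeR's rule (minimum count 10, total 15) kept 16548 genes. The libraries' TMM factors came to 1.00, 1.03 and 0.971. The variability test divided each gene's robust quasi-dispersion, from an intercept-only fit, by its trended prior and referred it to F with 5.24 prior degrees of freedom. It was tested on simulated data. With 1 group, no contrast exists. The labels name no animal per library, so a p-value here speaks of the spread among these 3 libraries, part or all of which may be technical.

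The members and lists were chosen with earlier results of these data known. Named genes are the members, their 3 paralog families, the 3 highest genes per kilobase of each list (1 of them is not reported here) and those with 0 reads; others named, and the comparison with neighbours, strands and promoters, were chosen after values were seen. Alternatives were the unstranded counts, DESeq2 size factors or library totals, no filter, a prior that is not robust, 2 other dispersion tests, another length, other thresholds, and each library left out.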

Additional observations from a re-analysis of the deposited data

Results flagged for a closer look

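Opposite-strand reads, which enter none of the levels above, exceeded the limit of 3 reads in every library for 4 of the 10 genes. The lowest of the 3 libraries had 194 such reads for Mylpf, 24 for Ttn, 14 for Tnnc2 and 4 for Ckm. Ttn, Tnnc2 and Ckm each overlap an annotated gene on the opposite strand (Gm13938, Ube2c and A930016O22Rik). On its own strand Gm13938 had only 1, 0 and 0 reads in thymus 1, 2 and 3. Ube2c had 3238, 3391 and 3016, and A930016O22Rik had 19, 15 and 15. Mylpf overlaps none, and Sept1 ends 148 bases beyond it on that strand. The part of these genes in the reads was not tested.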

How the results depend on the processing

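The members called by the quasi-likelihood test stayed at 0 in all alternatives run, and those at 1 CPM or more at 4 except as given here. Over all genes, the 10 calls became 20 with library totals, 285 with no filter, 81 by DESeq2 dispersion outliers, 122 by negative binomial goodness of fit, and 23 to 137 with each library left out (25 without thymus 1, 23 without thymus 2, 137 without thymus 3). The 7188 genes beyond counting noise became 3768 to 6579 (lowest without thymus 3), and the 2 such members became 1 with any library left out, 1 with no filter and 3 in unstranded counts. At 1 CPM per kilobase in place of 1 CPM, 2 members and 11 of the 74 further muscle genes passed in every library. The Mylpf level per kilobase, 28.2, was 36.1 in unstranded counts and 39.1 by the longest transcript, and 27.8 to 28.6 with each library left out. Of 63 alternative levels of the other members, 6 moved by more than 1 SD. In unstranded counts Tnnc2 went from 0.207 to 0.0139 and Chrna1 from 0.0309 to 0.0605, and Ckm, within its SD, from 0.109 to 0.0611. By the longest transcript Tnnt3 went from 1.75 to 2.57, Des from 0.776 to 0.962 and Tnnc2 to 0.236, and without thymus 2 Tnnc2 went to 0.201. The longest-transcript values are the same CPM divided by a shorter length. The Tnnc2 level without thymus 2 rests on 5 and 4 reads. The cause of the shifts in unstranded counts was not tested. No paired analysis was possible because there is only 1 group. Of the 6 members below 1 CPM, 5 had too few reads to enter the tests.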
